A study of Mus musculus with 24 samples.

Results

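A set of 50 genes of ribosome assembly and of RNA polymerase I, chosen by name from the 17017 genes in the tables, was followed in alveolar macrophages treated with IL-13, IL-33 and IL-17A. These primary cells, phagocytes that live in the air spaces of the lung, came from wild-type BALB/cJ mice, and their RNA was sequenced 20 h after cytokine addition. The 8 groups of 3 libraries each were untreated cells and cells given IL-13, IL-17A, IL-13+IL-17A, IL-33, IL-33+IL-17A, IL-33+IL-13 or IL-33+IL-13+IL-17A, so that 12 of the 24 libraries had IL-13. No gene was altered in any group, and the labels give no dose, sex or age. Whether the 3 libraries of a group are 3 animals, 3 cultures or repeats of 1 is not stated in the labels, and p-values here measure only how libraries spread, which may be technical.

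Ribosomes are built in the nucleolus. Pol I, brought to the ribosomal DNA by the factors Rrn3 and Ubtf, transcribes 1 long precursor RNA. Box C/D particles methylate its riboses, box H/ACA particles turn chosen uridines into pseudouridine, and a succession of assembly factors, helicases and nucleases folds and cuts it into the RNAs of the small and the large subunit. In many cell types the genes of this pathway are known targets of the transcription factor Myc, and resting tissue macrophages are mostly non-dividing cells that can enlarge when activated. By role, the 50 genes were 6 of Pol I and its factors, 3 of box C/D particles, 4 of box H/ACA particles, 16 of the small subunit, 16 of the large subunit and 5 nucleolar proteins of several roles.

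The libraries held between 9.13 M and 12.9 M reads (mega-reads, median 10.6 M), counted back from the deposited TPM values, and the 50 genes took 0.304% to 0.376% of them. Mean reads per library ranged from 101 for Polr1e to 3618 for Ncl, with a median of 498, and all 50 passed the filter on low values. TPM, an abundance scaled by gene length and library total, used the gene span with introns as length, so levels are compared between libraries for 1 gene and not between genes. Of the 24 libraries 3 (untreated replicate 1, IL-17A replicate 2 and IL-33+IL-13+IL-17A replicate 2) stood apart on the second principal component, with scores of 22.3, 20.3 and 43.3 against at most 4.42 elsewhere. The alveolar macrophage markers, all 10 of 10 in the tables, summed to between 3369 and 3673 TPM in libraries without IL-13 and to between 10203 and 12922 TPM with it. Such a sum follows its most abundant genes and does not show whether each of the 10 rose. The pan-macrophage markers, 6 of 6 in the tables, went the other way, with sums of 20267 to 21333 TPM untreated and 16838 to 18289 TPM with IL-13. The fibroblast markers in the tables (4 of 7) summed to 4.76 to 6.78 TPM untreated and 2.57 to 2.98 TPM with IL-13, with Col1a1 at 0 TPM in the untreated mean. Of these 4 fibroblast markers 1 passed the filter on low values. The neutrophil and mast cell markers in the tables (3 of 7) summed to 137 to 163 TPM untreated and 77.5 to 93.3 TPM with IL-13. These sums also follow their most abundant genes and do not show whether such cells were present. The epithelial markers in the tables (5 of 9) summed to 8.33 to 9.07 TPM untreated and 38.9 to 41.1 TPM with IL-13, of which Cdh1 made up 3.54 and 38.1 TPM in the group means, while Krt8 was at 0 TPM in the untreated mean. The part of other cells in the results below was not tested.

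With IL-13 alone, ribosome assembly genes rose and none fell. At an adjusted p under 0.05 in limma, 30 of the 50 genes were higher and 0 were lower than in untreated cells, while 14.1% of the 13215 genes tested were higher and 15.7% lower (29.8% in either direction). The difference was positive for 47 of 50 genes, with a median of 0.25 on the log2(TPM + 1) scale, against -0.03 over all genes tested, and it ranged from -0.12 (Utp14a) to 0.59 (Grwd1). In 38 of the 50 genes all 3 libraries with IL-13 lay above all 3 untreated ones, which held for 19.7% of the genes tested. The changes were small: the largest of the 50, of Grwd1, was an increase of 50.6% in TPM + 1. In such bulk RNA, fewer cells of a type and less RNA per cell cannot be told apart.

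The heat map of single libraries shows this rise in each of the 4 groups with IL-13.

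**Figure D1:**
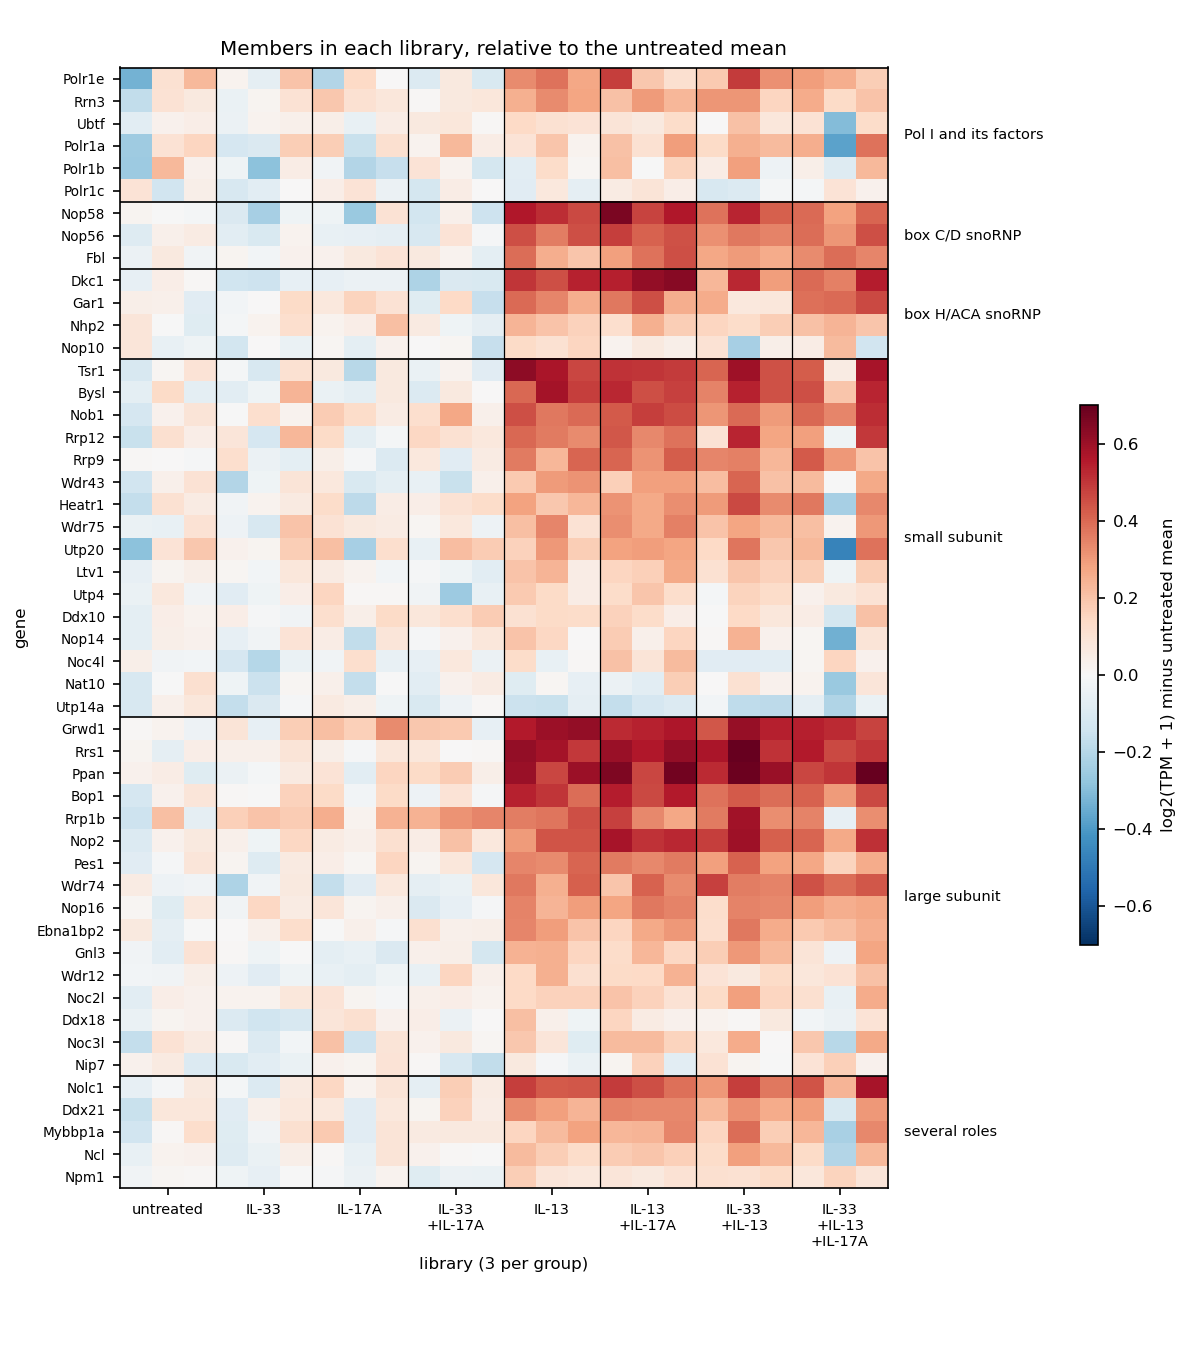
Each of the 50 genes (rows, by role and then by the IL-13 change) in each of the 24 libraries (columns, 3 per group): colour is log2(TPM + 1) minus the gene's untreated mean, red higher and blue lower. The 12 libraries on the right, with IL-13, are red for most genes of the box C/D, box H/ACA and large subunit rows, the Pol I rows are paler, and IL-33+IL-13+IL-17A replicate 2 has blue cells in rows that are red in its 2 partners.

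The rise was seen in all 4 backgrounds. With IL-17A in both groups, IL-13 raised 28 of 50 genes and lowered 0 (12.2% higher and 17.6% lower among all genes tested, 29.8% in either direction), with a median of 0.24. With IL-33 in both groups it raised 25 and lowered 0 (11.2% and 12.8% of all genes, 23.9% in all), with a median of 0.23. With both other cytokines it raised 23 and lowered 0 (11% and 21.7% of all genes, 32.7% in all), with a median of 0.16. These 4 comparisons share no library. Called higher in all 4 were 19 genes: Bop1, Bysl, Dkc1, Ebna1bp2, Fbl, Grwd1, Nob1, Nolc1, Nop16, Nop2, Nop56, Nop58, Npm1, Pes1, Ppan, Rrp9, Rrs1, Tsr1 and Wdr74. Called in none of the 4 were 15 genes, among them 5 of the 6 Pol I genes. The difference was positive in all 4 for 40 of the 50 genes. The shares of all genes tested that were called higher in all 4, in none, or positive in all 4 were not counted. These 3 counts therefore cannot be set against all genes. Across the 50 genes the 6 pairs of these comparisons correlated with Pearson's r from 0.74 to 0.90, which describes genes measured in the same libraries and not independent replicates. All 3 libraries with IL-13 lay above the 3 without in 36 genes with IL-17A present (19% of all genes tested; 1 gene had all 3 below, against 26.1%), in 32 with IL-33 present (17.4%) and in 25 with both (13.2%).

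In the last comparison the smaller median went with 1 library. The mean difference of the 50 genes from the untreated mean was 0.24, 0.08 and 0.29 in the 3 libraries of IL-33+IL-13+IL-17A, and the median over all genes tested was -0.03, -0.18 and 0.02 in the same libraries. Replicate 2 was thus low in the mean of these genes and in the median of all genes. It was not low in every role: its box H/ACA mean was 0.30, against 0.26 and 0.27 in replicates 1 and 3. The means of its other roles were below those of both, with Pol I at -0.05 against 0.16 and 0.19. Rescaled by the median of ratios, the same comparison gave 34 genes higher and a median of 0.26, and the voom test on recovered reads gave 33 and 0.25, while a fit of only the 2 groups compared gave 13 genes higher. Among all genes called there, the share that was higher went from 33.6% to 52.4% and 44.8%. The number of all genes called higher went from 1450 to 2273 and 2028, and was not counted for the fit of 2 groups. Without the 3 libraries that stood apart, the 4 counts were 27, 31, 32 and 30 higher. Over all 13215 genes tested they were then 1825, 1641, 1805 and 1591 higher.

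The plot of library means shows how far the groups lay apart.

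**Figure D2:**
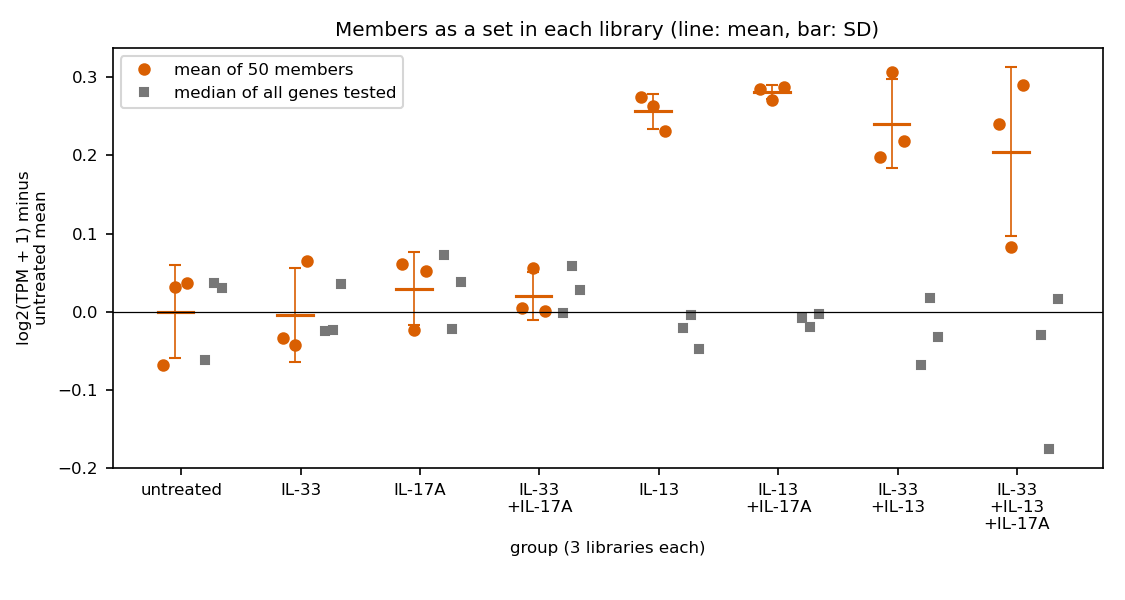
Mean over the 50 genes of log2(TPM + 1) minus each gene's untreated mean, 1 orange point per library, with the group mean (line) and SD (bar, n = 3 libraries); grey squares are the median of all genes tested in the same libraries. The 12 libraries without IL-13 lie between -0.07 and 0.06 and the 12 with IL-13 between 0.08 and 0.31, the lowest being IL-33+IL-13+IL-17A replicate 2, whose grey square is also the lowest, at -0.18.

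By group, the mean of the 50 genes was 0.26 ± 0.022 (SD, n = 3 libraries, as for the next values) with IL-13, 0.28 ± 0.0091 with IL-13+IL-17A, 0.24 ± 0.057 with IL-33+IL-13 and 0.20 ± 0.11 with all 3 cytokines. It was 0 by construction, with an SD of 0.059, in untreated cells, -0.0041 ± 0.060 with IL-33, 0.03 ± 0.046 with IL-17A and 0.02 ± 0.031 with IL-33+IL-17A. The neighbours within each of these 2 sets of groups overlapped, and the 2 sets did not. For 15 of the 50 genes every 1 of the 12 libraries with IL-13 was above every 1 of the 12 without, which held for 6.18% of the genes tested: Bop1, Dkc1, Fbl, Grwd1, Nob1, Nolc1, Nop2, Nop56, Nop58, Npm1, Pes1, Ppan, Rrp9, Rrs1 and Wdr74. For 0 genes were all 12 below (8.87% of the genes tested).

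Promoters are shown here for the genes that hold either of 2 motifs: CACGTG, the E-box bound by Myc with Max and by related factors, and TTC followed by any 4 bases and GAA, the spacing that STAT6, a factor activated by IL-13, is known to prefer (the STAT6-type motif). Both motifs read the same on both strands. RefSeq (GRCm38.p6) gave a promoter for 45 of the 50 genes (54 promoters, 250 bases before each start); Npm1, Fbl, Bop1, Rrp12 and Rrs1 were not matched. CACGTG was in promoters of 2 of the 45 genes (4.44%), Nop2 and Rrn3, against 10.4% of the 8906 tested genes with a promoter. The STAT6-type motif was in promoters of 6 genes (13.3%), namely Bysl, Ddx21, Dkc1, Nop14, Nop16 and Rrn3, against 5.40% of the tested genes. These are matches of letters only. Rrn3 held both motifs, CACGTG at 215 and at 48 bases before its start and the STAT6-type motif at 173 bases, and they did not overlap. The windows around the matches in Rrn3, Nop2, Dkc1, Ddx21 and Nop14, the last the only gene of the 6 that was not called with IL-13, read as follows, with the motif in capitals.
Rrn3, chr16:13780457-13780516, plus strand: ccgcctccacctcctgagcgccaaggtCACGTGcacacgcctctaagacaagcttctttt
Rrn3, chr16:13780624-13780683, plus strand: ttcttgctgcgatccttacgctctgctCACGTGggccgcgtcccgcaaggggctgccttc
Rrn3, chr16:13780501-13780560, plus strand: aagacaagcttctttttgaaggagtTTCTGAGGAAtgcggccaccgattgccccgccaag
Nop2, chr6:125131796-125131855, plus strand: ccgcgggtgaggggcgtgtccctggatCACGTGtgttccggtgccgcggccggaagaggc
Dkc1, chrX:75095604-75095663, plus strand: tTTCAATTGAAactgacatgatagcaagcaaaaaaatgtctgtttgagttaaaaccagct
Ddx21, chr10:62602489-62602548, minus strand: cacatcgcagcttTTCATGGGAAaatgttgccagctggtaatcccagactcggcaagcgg
Nop14, chr5:34660150-34660209, minus strand: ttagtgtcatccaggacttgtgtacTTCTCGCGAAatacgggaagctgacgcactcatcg

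The bases just before the start held more of the dinucleotide CG than RefSeq promoters at large. The 54 promoters held a median of 8.5 CG in their last 100 bases, against 3 over all 32851 RefSeq promoters, and their median G+C content was 57.4% against 52.4%. Those 32851 include promoters of genes not tested here, and no value was taken over tested genes alone. Whether these promoters differ from those of other expressed genes was not tested. The stretches before the starts of 4 genes that rose are printed with CG in capitals, to show both CG-rich and CG-poor cases: Nolc1 held 9, Tsr1 held 10 in 91 bases, Nop58 held 5 in 71 bases and Dkc1 held 2.
Nolc1, chr19:46075747-46075846, plus strand: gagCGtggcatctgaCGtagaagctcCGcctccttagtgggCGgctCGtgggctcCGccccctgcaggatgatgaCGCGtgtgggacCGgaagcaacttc
Tsr1, chr11:74897980-74898070, plus strand: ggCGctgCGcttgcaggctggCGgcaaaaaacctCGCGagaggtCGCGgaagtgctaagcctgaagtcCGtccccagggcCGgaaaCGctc
Nop58, chr1:59684906-59684976, plus strand: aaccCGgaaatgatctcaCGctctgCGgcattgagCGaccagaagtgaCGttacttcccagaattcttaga
Dkc1, chrX:75095754-75095853, plus strand: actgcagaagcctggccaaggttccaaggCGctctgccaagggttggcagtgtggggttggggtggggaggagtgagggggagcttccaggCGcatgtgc

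Of the Pol I genes, 1 of 6 rose with IL-13 alone, with a group median of 0.11 on the log2 scale. That share of 16.7% is near the 14.1% of all genes tested that were higher. The counts of the other roles with IL-13 alone, given below, are to be read against the same 14.1%. Rrn3, which joins Pol I to the factors on the ribosomal DNA promoter, was at 10.7, 13.2 and 12.9 TPM in untreated cells and at 14.7, 15.7 and 15.03 TPM with IL-13. The IL-13 libraries were all above the untreated ones, and the rise was 0.29 (SE 0.066, adjusted p = 0.00244), or 21.9% in TPM + 1. Rrn3 was also called with IL-33 present (adjusted p = 0.0144) and not in the other 2 comparisons. Polr1e, a subunit that acts in initiation, was at 3.56, 5.19 and 5.72 TPM untreated and at 6.24, 6.47 and 5.94 TPM with IL-13. The libraries did not overlap, but the difference of 0.33 missed the threshold (SE 0.13, adjusted p = 0.067), at the lowest read number of the 50 genes.

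The 2 largest subunits, which form the active centre of Pol I, showed no called difference. Polr1a was at 5.22, 6.92 and 7.20 TPM untreated and at 6.90, 7.47 and 6.52 TPM with IL-13, so the groups overlapped (difference 0.11, 95% interval -0.21 to 0.43). Polr1b was at 6.77, 9.84 and 8.47 TPM untreated and at 7.82, 9.12 and 8.35 TPM with IL-13 (difference 0.02, interval -0.23 to 0.28), again overlapping. These intervals are wide and include rises as large as that of Rrn3 for Polr1a. Polr1c, which Pol I shares with Pol III, was at 89.96, 76.4 and 86.6 TPM untreated and at 79.6, 88.6 and 80.5 TPM with IL-13 (difference -0.02, interval -0.15 to 0.10). Ubtf, which binds along the ribosomal DNA and opens it, was at 82.6, 88.8 and 89.8 TPM untreated and at 96.0, 93.7 and 93.1 TPM with IL-13. Its groups did not overlap, yet the difference of 0.12 was not called (adjusted p = 0.32).

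All 3 box C/D genes rose in each of the 4 comparisons, by a median of 0.42 with IL-13 alone. Nop58, a core protein that holds the guide RNA, was at 12.1, 11.9 and 11.8 TPM untreated and at 18.1, 17.5 and 16.9 TPM with IL-13, a rise of 0.51 (SE 0.080, adjusted p = 5.45e-05). Its partner Nop56 was at 132, 144 and 146 TPM untreated and at 192, 180 and 192 TPM with IL-13, a rise of 0.42 (SE 0.051, adjusted p = 2.73e-06). Neither gene overlapped between the 12 libraries with and the 12 without IL-13: Nop58 ran from 9.81 through a median of 11.7 to 12.9 TPM without it and from 14.7 through 16.9 to 19.5 TPM with it. Fbl, the methyltransferase of the particle, rose from 84.9 ± 3.60 to 103 ± 7.30 TPM (SD, n = 3), by 0.28.

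Of the 4 box H/ACA genes, 3 rose with IL-13 alone. Dkc1, dyskerin, the pseudouridine synthase itself, was at 21.7, 23.4 and 22.8 TPM untreated and at 32.5, 31.4 and 33.3 TPM with IL-13, a rise of 0.50 (SE 0.064, adjusted p = 5.72e-06). Over all groups it ran from 19.4 through a median of 21.7 to 23.4 TPM without IL-13 and from 26.8 through 32.8 to 35.7 TPM with it, with no overlap. Gar1, which binds dyskerin and helps release the product, was at 30.1, 29.99 and 27.7 TPM untreated and at 38.8, 37.3 and 35.01 TPM with IL-13, a rise of 0.33 (SE 0.074, adjusted p = 0.0018). Gar1 was not called where IL-33 was in both groups: its libraries there were at 28.8, 29.3 and 32.2 TPM with IL-33 and at 35.2, 30.8 and 30.9 TPM with IL-33+IL-13, and they overlapped. Nhp2, a small core protein, rose by 0.20 (adjusted p = 0.00621), and Nop10, the smallest partner, had a difference of 0.13 that was not called (adjusted p = 0.262).

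Of the 16 small subunit genes 8 rose with IL-13 alone, with a group median of 0.22. Tsr1, a factor of late maturation of the small subunit in the cytoplasm, was at 43.1, 47.0 and 49.8 TPM untreated and at 72.5, 69.7 and 64.9 TPM with IL-13, a rise of 0.56 (SE 0.10, adjusted p = 0.000283). Bysl, bystin, which acts on the precursor of the small subunit, was at 25.5, 29.5 and 25.4 TPM untreated and at 35.6, 40.6 and 37.7 TPM with IL-13, a rise of 0.49 (SE 0.091, adjusted p = 0.000336). Nob1, the nuclease that makes the final cut of the small subunit RNA, was at 17.1, 19.03 and 19.9 TPM untreated and at 25.8, 24.4 and 24.9 TPM with IL-13, a rise of 0.41 (SE 0.063, adjusted p = 5.31e-05). In all 3 genes the IL-13 libraries were well above the untreated ones. Among the 12 libraries with IL-13 the lowest Tsr1 value, 48.5 TPM in IL-33+IL-13+IL-17A replicate 2, fell within the range without IL-13 (40.6 to 50.3 TPM).

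The other called genes of the small subunit were Rrp12 (0.37), Rrp9 (0.33), Wdr43 (0.27), Wdr75 (0.22) and Ltv1 (0.16). Rrp9 and the Wdr proteins belong to the large early particle called the small subunit processome. Further members of that particle were not called: Heatr1 (0.23), Utp20 (0.21), Utp4 (0.12), Nop14 (0.12) and Noc4l (0.03), nor was the helicase gene Ddx10 (0.12). The 2 lowest differences of the 50 were also here. Utp14a was at 17.04, 18.997 and 19.6 TPM untreated and at 16.6, 16.5 and 17.7 TPM with IL-13, overlapping, with a difference of -0.12 (adjusted p = 0.156). Without untreated replicate 1 that difference was -0.18 and was called lower (adjusted p = 0.0449). Nat10, the enzyme that acetylates cytidines of the small subunit RNA, differed by -0.04 (interval -0.23 to 0.14).

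Of the 16 large subunit genes 12 rose with IL-13 alone, with a group median of 0.32. Grwd1, a chaperone of a ribosomal protein of the large subunit, was at 40.6, 40.95 and 39.3 TPM untreated and at 59.7, 61.5 and 62.3 TPM with IL-13, a rise of 0.59 (SE 0.066, adjusted p = 8.94e-07). Rrs1 helps to dock the particle of the smallest RNA of the large subunit onto the growing large subunit. Rrs1 was at 373, 353 and 380 TPM untreated and at 565, 553 and 520 TPM with IL-13, a rise of 0.57 (SE 0.046, adjusted p = 1.53e-08). Ppan, a large subunit assembly factor, was at 95.5, 97.1 and 88.1 TPM untreated and at 143, 130 and 142 TPM with IL-13, a rise of 0.56 (SE 0.075, adjusted p = 9.14e-06). All 3 were also apart over the whole design: Rrs1 ran from 353 through a median of 377 to 392 TPM in the 12 libraries without IL-13 and from 509 through 547 to 608 TPM in the 12 with it.

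The PeBoW complex, needed to process the large subunit RNA, is made of Bop1, Pes1 and Wdr12, and all 3 rose with IL-13, by 0.48, 0.36 and 0.17. Rrp1b (0.39), the RNA methyltransferase Nop2 (0.39), Wdr74 (0.34), Nop16 (0.29), Ebna1bp2 (0.28) and Gnl3 (0.21), which codes for nucleostemin, rose as well. Over the 4 backgrounds, Gnl3 was called in 3, Wdr12 in 2 and Rrp1b only with IL-13 alone. The difference of Rrp1b was not positive in all 4. Rrp1b was at 5.42, 7.23 and 5.801 TPM untreated, while its median over the 12 libraries without IL-13 was 7.201 TPM. The 4 genes not called with IL-13 alone were Noc2l (0.15, adjusted p = 0.0563), Ddx18 (0.07), Noc3l (0.06) and Nip7 (0.01). Nip7 was at 119, 122 and 109 TPM untreated and at 122, 116 and 113 TPM with IL-13, the smallest difference of the 16.

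Of the 5 nucleolar proteins of several roles 3 rose with IL-13 alone. Nolc1, which brings modifying particles to the nucleolus, was at 72.7, 75.2 and 79.5 TPM untreated and at 107, 103 and 103 TPM with IL-13, a rise of 0.45 (SE 0.074, adjusted p = 8.92e-05). Ddx21, a helicase that links Pol I transcription to processing, was at 60.9, 71.9 and 72.0 TPM untreated and at 85.9, 83.4 and 80.4 TPM with IL-13, a rise of 0.29 (SE 0.087, adjusted p = 0.0173). The groups did not overlap in either gene, but Ddx21 was at 63.1 TPM in IL-33+IL-13+IL-17A replicate 2. Npm1, nucleophosmin, rose by 0.11 (SE 0.029, adjusted p = 0.00672), from 279 ± 4.04 to 301 ± 11.6 TPM (SD, n = 3). Ncl, nucleolin, and Mybbp1a had differences of 0.17 and 0.22 that were not called (adjusted p = 0.0923 and 0.155).

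The plot of changes with their intervals gives all 50 genes by role.

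**Figure D3:**
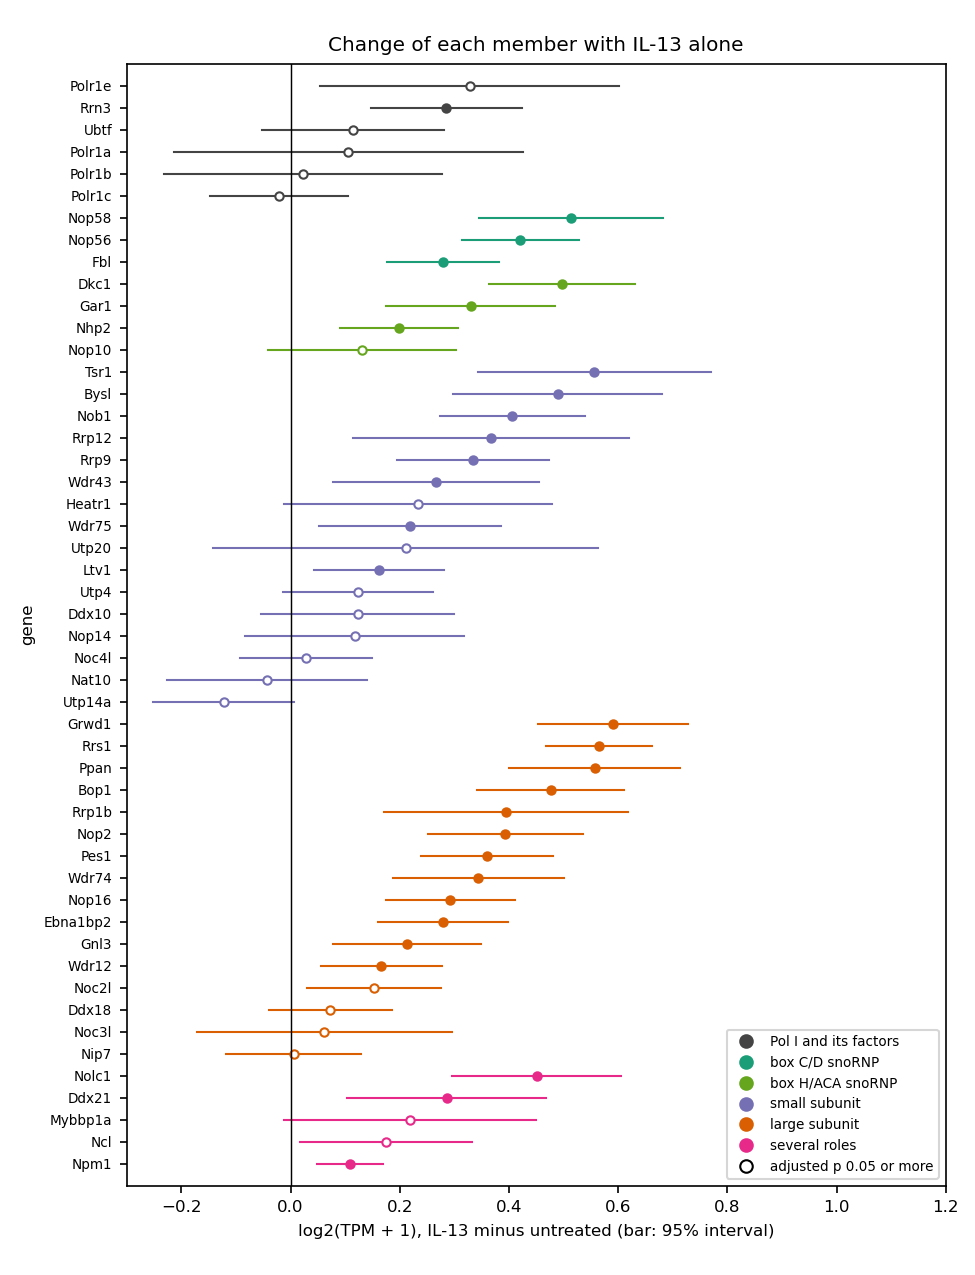
Difference in log2(TPM + 1) between IL-13 and untreated cells (x axis) for each gene (y axis), with its 95% interval from limma; filled points passed the threshold and open points did not, and colour is the role. The box C/D genes are all filled, 1 of the 6 Pol I genes is, and the points run from -0.12 (Utp14a) to 0.59 (Grwd1).

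Neither IL-33 nor IL-17A alone, nor the pair, gave a called change of any of the 50 genes. In limma 0 members were called with IL-33 (0% of all genes tested), 0 with IL-17A (0%) and 0 with IL-33+IL-17A (0%). At an unadjusted p under 0.05 there were 2, 1 and 3 members, and voom on recovered reads also called 0 in each. The 95% interval of the difference lay within 0.5 of zero on the log2 scale for each of the 50 genes after IL-33 alone or IL-17A alone, and for 49 with the pair. The exception was Rrp1b, at 0.30 with the pair (interval 0.08 to 0.52, adjusted p = 0.949). Grwd1 was at 46.7, 45.4 and 51.0 TPM with IL-17A against 40.6, 40.95 and 39.3 TPM untreated. These did not overlap, yet the difference of 0.24 was not called (adjusted p = 1).

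Nor did IL-33 or IL-17A added to IL-13 give a called change of the 50 genes. With IL-33 added to IL-13, limma called 0 members (0.832% of all genes tested were higher and 1.74% lower, 2.57% in all), and with IL-33 added to IL-13+IL-17A it called 0 (1.15% and 2.4%, 3.55% in all; the higher share of those called went from 32.4% to 43.8% with median-of-ratios scaling). With IL-17A added to IL-13 or to IL-33+IL-13, 0 members were called, as were 0% of all genes. At an unadjusted p under 0.05 there were 2, 3, 2 and 3 members in these 4 comparisons, in the order given, and voom called 0 in each. The median difference was -0.02, -0.07, 0.03 and -0.04, beside 0.00, -0.05, 0.01 and -0.04 over all genes. The test of whether the IL-13 effect differed called 0 members for IL-33 (0.393% of all genes higher, 0.779% lower, 1.17% in all) and 0 for IL-17A (0%), with 1 member each at an unadjusted p under 0.05 and 0 by voom.

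Gar1 and Dkc1 are given in full, chosen after their values were seen. Gar1 was lower by 0.19 when IL-33 was added to IL-13 (37.0 ± 1.93 against 32.3 ± 2.48 TPM, SD, n = 3, adjusted p = 0.255), and higher by 0.28 when IL-17A was added to IL-33+IL-13 (39.3 ± 1.19 TPM, adjusted p = 0.691). Dkc1 was at 32.5, 31.4 and 33.3 TPM with IL-13 and at 26.8, 33.1 and 27.9 TPM with IL-33+IL-13, a difference of -0.15 (adjusted p = 0.367). Its 3 libraries with both cytokines were uneven, and replicate 2 was within the range of IL-13 alone. Without that library the difference was -0.23 and was called lower (adjusted p = 0.0349).

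The plot of single genes shows their levels in all 8 groups.

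**Figure D4:**
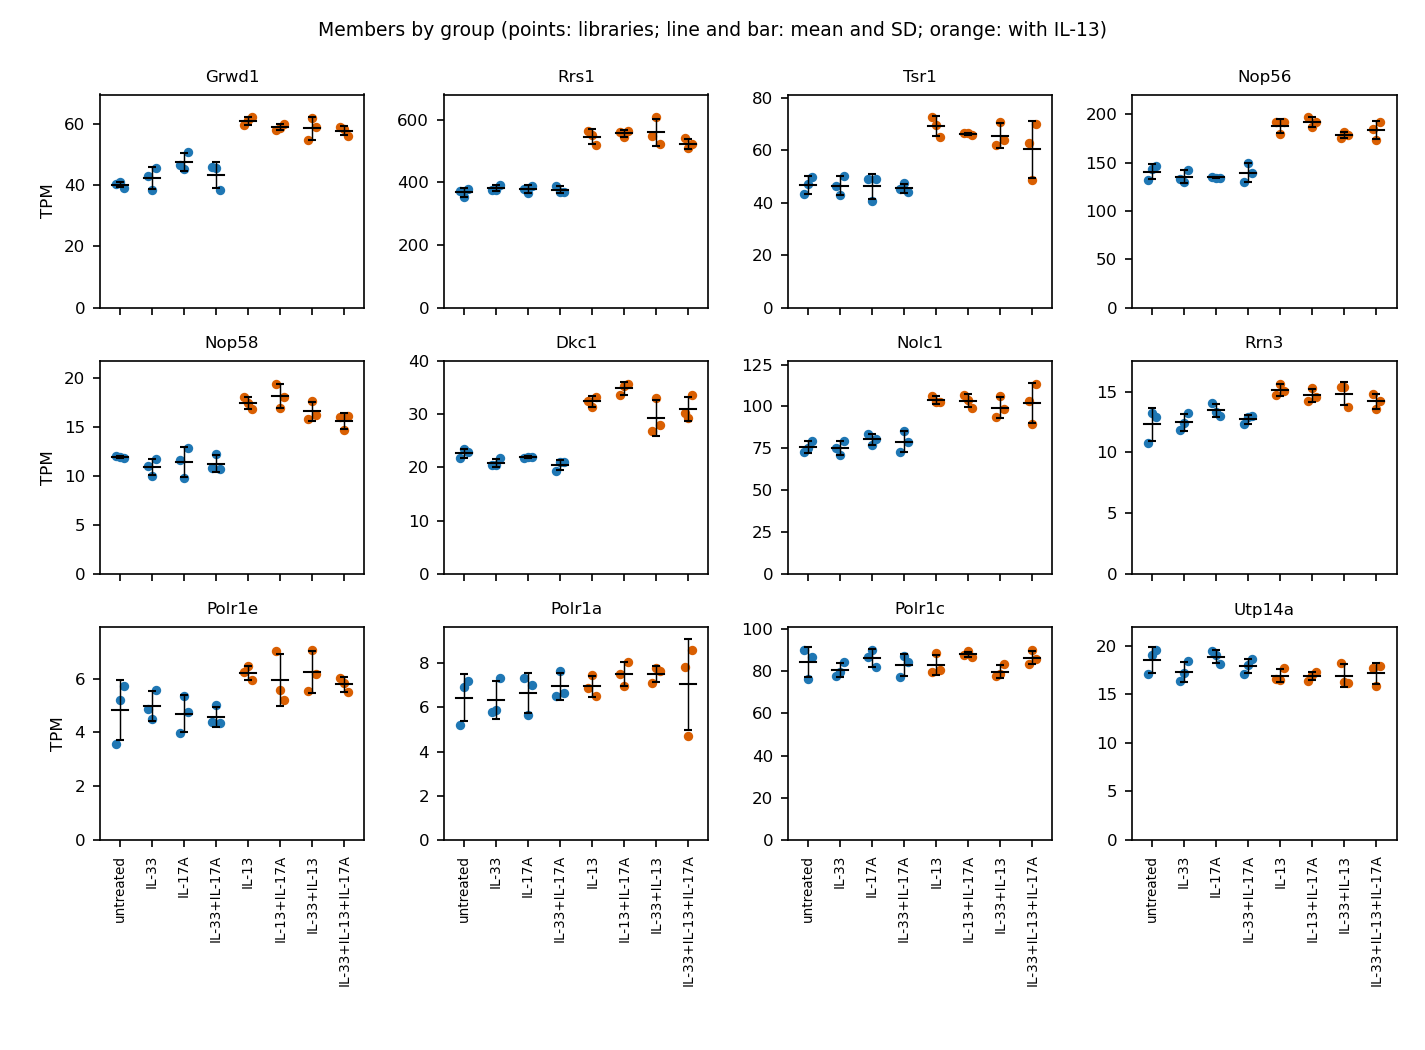
TPM (y axis, from 0) of 12 genes in each library (points) by group, with the mean (line) and SD (bar, n = 3 libraries); orange marks groups with IL-13 and blue those without. Grwd1, Rrs1, Nop56, Nop58, Dkc1 and Nolc1 show no overlap between the 2 colours, while Polr1a, Polr1c and Utp14a do.

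What the genes share beyond their role was also examined. Annotated small nucleolar RNA genes lie within 8 of the 50 genes (16%), on the same strand, against 1.58% of all genes tested: Nop56 holds 5, Nop58 4, Ncl 3, Wdr43 3, Gnl3 3, Ppan 2, Tsr1 2 and Dkc1 1. Of these hosts all but Ncl rose with IL-13 alone, beside 30 of all 50 genes and 14.1% of all genes tested. The share that rose among all tested genes holding such RNA genes was not counted. Split at their median span of 14040 bases, 19 of the shorter 25 genes were called higher (76%, median 0.33) and 11 of the longer 25 (44%, median 0.17). Among all genes tested, split at the same span, 12.5% of the shorter and 15.5% of the longer were called higher, with medians of -0.03 and -0.03. The difference between the shorter and the longer of the 50 genes was not tested. In untreated replicate 1 the longer genes lay 0.12 below their group mean and the shorter 0.01 below, and in IL-33+IL-13+IL-17A replicate 2 they lay 0.19 and 0.05 below. Thus the longer genes were the more uneven ones in those libraries. The part of gene span in the counts was not tested.

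Some values rest on reads that another locus could share, since no source used here states how reads were counted or whether strand was used. Overlaps with a gene on the other strand were found for 16 of the 50 genes, and for 9 they ran over at least 300 bases: Tsr1 (2984 bases with Srr, 5.48 TPM untreated and 4.36 TPM with IL-13), Polr1a (2631 bases with Gm26628), Polr1e (2319 bases with Fbxo10), Bop1 (2007 bases with Scx), Rrp9 (987 bases with Parp3), Heatr1 (875 bases with Lgals8), Noc2l (651 bases with Samd11), Wdr12 (399 bases with Carf) and Bysl (361 bases with Ccnd3). Lgals8, at 49.1 and 46.7 TPM, was above the level of Heatr1 itself. Of these 9 partners 5 had a higher mean with IL-13 than untreated: Parp3 (54.5 and 76.8 TPM), Scx (2.99 and 3.84 TPM), Gm26628 (0.51 and 0.93 TPM), Samd11 (0.11 and 0.30 TPM) and Ccnd3 (2.80 and 2.90 TPM). Annotated pseudogenes with near copies, of at least 90% identity over 300 bases, were found for 15 of the 50 genes, with 9 for Npm1, 5 for Nop56, 3 for Rrs1 and 3 for Ddx18. These genes are reported as uncertain to that extent.

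Beyond the 50 genes, the counts with IL-13 alone in each further list are to be read against the 14.1% higher, 15.7% lower and 29.8% in either direction of all genes tested. Of 39 further large subunit factors tested, 14 were higher (35.9%) and 3 lower (median 0.12). Of 40 further small subunit factors 7 were higher and 1 lower (17.5% and 2.5%, median 0.10), a share of higher genes near that of all genes. Eif6, which keeps the subunits from joining too early, went from 150 ± 5.59 to 191 ± 4.35 TPM (SD, n = 3 libraries, here and below; 0.35, adjusted p = 2.01e-06), and Tma16 from 13.3 ± 1.82 to 20.9 ± 0.98 TPM (0.62). Mrto4, a placeholder for a stalk protein of the ribosome, fell from 166 ± 10.7 to 132 ± 6.22 TPM (-0.33, adjusted p = 1.03e-05). Among the small subunit factors Wdr46 rose by 0.49, Ngdn by 0.21 and Imp4 by 0.22.

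The lists of further polymerase genes held called shares below that of all genes (differences not tested). Of 11 further Pol I subunits and ribosomal DNA factors 1 was higher and 1 lower: Polr1d (0.17, adjusted p = 0.00294) and Znrd1 (-0.23, adjusted p = 0.0351), or 18.2% in either direction. Of 5 subunits shared by the polymerases 1 was higher, Polr2e (0.14), and of 22 Pol III genes 3 were higher and 3 lower (27.3% in either direction, median 0.00). Maf1, the repressor of Pol III, fell from 307 ± 3.48 to 257 ± 11.3 TPM (-0.26, adjusted p = 0.000252), and Gtf3c5 and Polr3k rose by 0.36 and 0.22.

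Genes of ribosomal proteins had smaller medians than the 50 genes, a difference that was not tested. Of 46 proteins of the large subunit 15 were higher (32.6%) and 1 lower (median 0.10), and of 32 of the small subunit 9 were higher (28.1%) and 1 lower (median 0.05). Rplp0, of the stalk, went from 755 ± 24.3 to 913 ± 9.75 TPM (0.27, adjusted p = 1.15e-06), Rpl10a rose by 0.17, Rpl12 by 0.17, Rpsa by 0.21, Rps18 by 0.22 and Rps6 by 0.14. Of 21 translation factors 11 were higher (52.4%) and 1 lower (median 0.15). Eif5a, an elongation factor, was at 1098, 1089 and 1090 TPM untreated and at 1699, 1610 and 1656 TPM with IL-13 (0.60, adjusted p = 2.19e-13), while the helicase Eif4a1 rose by 0.25 and the cap-binding Eif4e by 0.29. Of 14 snoRNA host genes 5 were higher and 0 lower (median 0.25), with Snhg1 at 0.62, Snhg15 at 0.56 and Gas5 at 0.48. Of 17 genes of purine and pyrimidine synthesis 7 were higher and 1 lower (median 0.15): Prps1 rose by 0.75, Impdh2, the first enzyme towards guanine nucleotides, by 0.60, and Ctps by 0.89.

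Myc had the largest called change of its list. It was at 36.7, 39.6 and 45.3 TPM in untreated cells and at 118, 125 and 117 TPM with IL-13, a rise of 1.55 (SE 0.074, adjusted p = 6.23e-12). Of 15 regulators around Myc, Max and mTOR tested, 4 were higher and 2 lower (median 0.02), among them the Max partners Mxd4 (0.43) and Mxi1 (-0.31). Myc was at 43.6 ± 4.43 TPM with IL-33 and at 44.5 ± 2.04 TPM with IL-17A, near the untreated 40.5 ± 4.39 TPM, and at 112 ± 5.64 TPM with IL-33+IL-13. Of 10 genes of p53 and nucleolar stress 1 was higher and 2 lower, a share of 30% that is about that of all genes: Rrp8 (0.45), Bbc3 (-0.87, adjusted p = 3.54e-06), which codes for a protein that promotes cell death, and Mdm2 (-0.20), the ligase that degrades p53. Rrp8 is also counted above among the further large subunit factors, and Rpl5 and Rpl11 of this list among the ribosomal proteins.

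Genes of proliferation rose with IL-13 and fell when IL-33 was added to it. With IL-13 alone 18 of 20 were higher and 0 lower (median 0.80), with Mcm5 at 1.40, Mcm7 at 0.99 and Mki67 at 1.66. With IL-33 added to IL-13, 11 of 20 were lower and 0 higher (1.74% and 0.832% of all genes tested). Of the 50 ribosome assembly genes 0 were called there, a count near those small shares. The interaction of IL-33 with IL-13 called 4 of the 20 lower (0.779% of all genes tested). Mki67, a marker of dividing cells, was at 1.23, 1.79 and 1.18 TPM untreated, at 6.77, 6.67 and 6.17 TPM with IL-13 and at 2.59, 2.47 and 1.92 TPM with IL-33+IL-13 (interaction -1.18, adjusted p = 0.0089). Over the same addition of IL-33 the median difference of the 50 genes was -0.02 and that of the proliferation list was -0.47. The difference between the 2 lists was not tested.

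**Figure D5:**
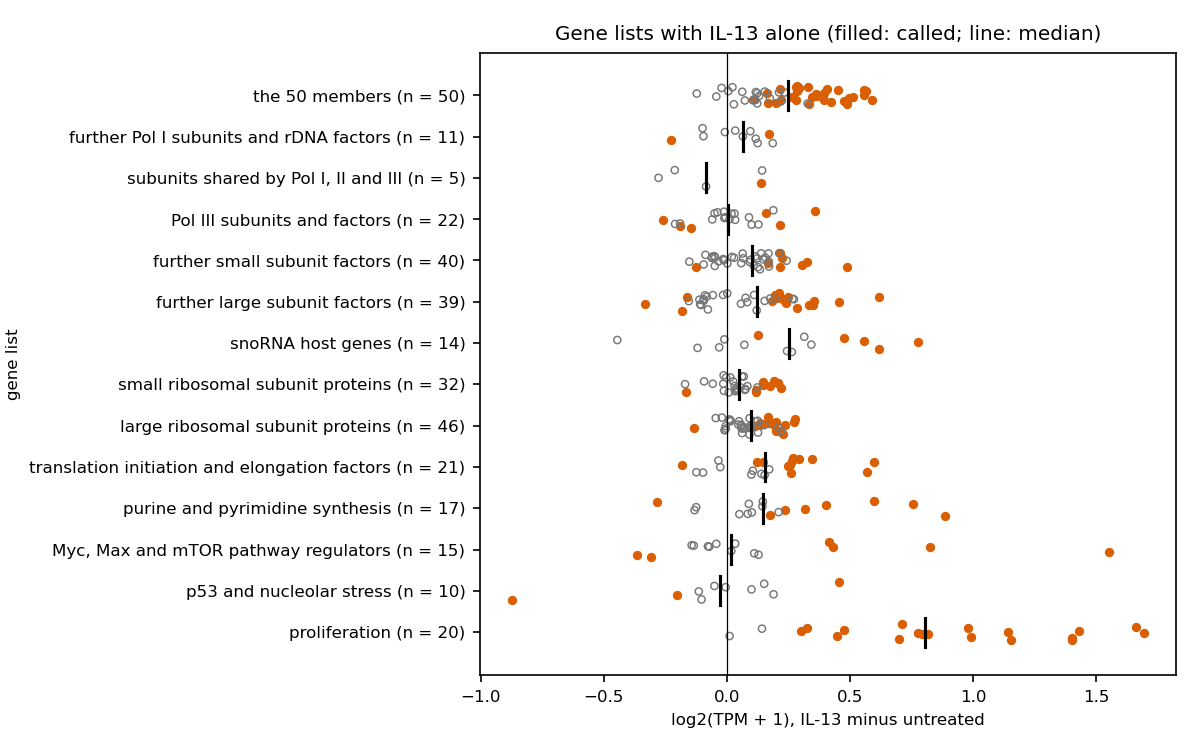
Difference in log2(TPM + 1) between IL-13 and untreated cells (x axis) for each tested gene of the 50 and of 13 further lists (y axis, with the number tested); filled orange points passed the threshold, open grey points did not, and the black line is the list's median. The 50 genes have a median of 0.25, ribosomal proteins 0.10 and 0.05, and the proliferation list 0.80, with Myc as the point at 1.55 in its list.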

How the data were processed

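The deposited tables give, per the file headers, TPM for 17017 genes in each of 24 libraries. The TPM values were made by the authors from reads aligned to mm10 with STAR, per the submitters' processing notes; no source used here gives the version, the counter or its strand setting. Gene length is the genomic span. Whole reads per gene were recovered from the steps of the low values: of values up to 20 reads, 90.1% to 91.4% were within 0.05 of a whole number (10% by chance). They served depth and 1 alternative.

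A gene was tested if 3 or more libraries had at least 1 TPM of it (13215 genes), with limma 3.58.1 (R 4.3.3, trend) on log2(TPM + 1), with 8 group means in 1 fit of all 24 libraries, Benjamini-Hochberg adjustment over all tested genes and a threshold of 0.05. A fold on that scale understates changes of low genes. On simulated data for IL-13 against untreated (13215 genes), 55% of log2 changes of 0.5 and 83% of changes of 1 were recovered, with 3 false calls. The changed genes, 100 of each size, were drawn from all genes tested and were fewer than those called in the data. These shares therefore do not give the recovery to expect for the 50 genes. The median SE was 0.070 for the 50 genes and 0.10 for all genes tested. The members, role groups and lists were chosen with earlier results of these data known. Named in full were all Pol I genes and the called genes with the largest rise per role (3 in groups of 16, otherwise 2), with up to 3 called genes of smallest p per further list; other genes given with single values were chosen after their values were seen. Copies were sought with blastn 2.17.0. Alternatives were 2 pseudocounts, 2 filters, median-of-ratios scaling, smaller fits, voom and leaving out libraries.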

Additional observations from a re-analysis of the deposited data

How the results depend on the processing

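No paired analysis was possible because the labels give no replicate number shared between groups: each library has a number of its own, and replicates 1 to 3 named here follow accession order and pair nothing. For IL-13 against untreated cells, 21 of the 30 calls were kept in all 14 alternatives, 9 were lost in at least 1 (Ddx21, Gnl3, Ltv1, Npm1, Rrn3, Rrp12, Wdr12, Wdr43 and Wdr75), and 7 other genes were called in at least 1 (Heatr1, Mybbp1a, Ncl, Noc2l, Polr1e, Ubtf and Utp14a). Leaving out 1 library at a time, the number of members higher with IL-13 was 23 to 31 alone, 22 to 26 with IL-17A, 17 to 25 with IL-33 and 20 to 28 with both; other alternatives gave 26 to 35, 28 to 35, 22 to 33 and 13 to 34. The lowest of these, 13 of 50 with both other cytokines, came from a fit of only the 2 groups compared, which has fewer libraries. The number of members lower with IL-13 than untreated was 0 to 1 when a library was left out and 1 without the 3 libraries that stood apart (Utp14a), the latter chosen after seeing the data. Voom on recovered reads called 1 member lower with IL-13+IL-17A than with IL-17A (Utp14a). IL-33 added to IL-13 gave 0 to 1 member lower when a library was left out (Dkc1, without IL-33+IL-13 replicate 2). The causes of the other changes were not tested. Of the named genes outside the 50, calls were lost in at least 1 alternative for Polr3k, Polr1d, Znrd1, Rpl10a, Rpl12, Mdm2, Rps6 and Polr2e.

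With 3 libraries per group the 95% intervals of the uncalled Polr1a and Utp20 ran from -0.21 to 0.43 and from -0.14 to 0.56. The smaller rises called in other genes lie within both intervals, and the largest, of 0.59 (Grwd1), lies above both.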
